A study of Homo sapiens with 27 samples.

Results

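The translation initiation factors of 3 diffuse large B-cell lymphoma (DLBCL) cell lines were measured after knockdown of SIRT3, a lysine deacetylase of the mitochondrion. The factors were taken by name. A gene was included when its symbol starts with EIF and a digit from 1 to 6, holds no hyphen and does not start with EIF2AK, which names the kinases of eIF2, and when it reached 1 CPM (counts scaled to the size of the library) in at least 3 libraries. Of the 27115 genes in the tables, 52 carry such a name and 48 passed the level rule. One of the 48 lies on chromosome Y and is not described, which leaves 47. The rule used names and levels and not the expression difference between knockdown and control cells. It was set with earlier results of these data known, and EIF4EBP3 passed the level rule only through control libraries.

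Karpas422 (classed as the OXPHOS subtype, which is rich in genes of oxidative phosphorylation), OCI-LY1 (germinal center B-cell like; OCI-Ly1 in the labels) and HBL1 (activated B-cell like) are established lines. Each line carried a control hairpin (shCtr, shCTRL in the labels) or 1 of 2 hairpins against SIRT3 (shSIRT3-1 and shSIRT3-2), delivered on a lentiviral vector that also encodes a yellow fluorescent protein and puromycin resistance. With 3 replicates in each of the 9 groups there were 27 libraries, all from day 8. The labels do not say whether replicates were separate infections or cultures, so p-values measure the spread between these libraries, and each subtype is represented by a single line. The authors grew OCI-LY1 in Iscove's medium and the other lines in RPMI. Line and medium cannot be told apart in comparisons with OCI-LY1.

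Initiation is the step at which a ribosome is loaded onto an mRNA and finds its start codon. The factor eIF2, with GTP, brings the initiator tRNA to the small ribosomal subunit, and eIF2B recharges it with GTP for the next round. The eIF4F complex (the cap-binding protein eIF4E, the scaffold eIF4G and the helicase eIF4A) recruits the mRNA, eIF4E-binding proteins hold eIF4E back, and eIF3 bridges mRNA and ribosome. Phosphorylation of the alpha subunit of eIF2 lowers general initiation while mRNAs such as that of ATF4 are still translated, and mTOR kinase releases eIF4E from its binding proteins. These are controls on protein, whereas the values below are RNA levels.

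Between 28694398 and 53405456 reads per library fell on genes. SIRT3 itself left no overlap between knockdown and control libraries, with 9.14 to 16.4 CPM in the 9 control libraries, 1.06 to 2.79 CPM with shSIRT3-1 and 2.84 to 6.24 CPM with shSIRT3-2, or 18.3% and 38.8% of the control level over the lines. The 5 B cell markers summed to between 935.3 and 2130 CPM in every library. Their sum was lower with shSIRT3-2 than with shCtr in Karpas422 (935.3 to 1396 against 1433 to 1865 CPM) and HBL1 (1489 to 1559 against 1741 to 2130 CPM), and higher with shSIRT3-1 in OCI-LY1 (1537 to 1779 against 1332 to 1439 CPM). The 3 T cell markers were at 0 to 0.103 CPM in OCI-LY1 and HBL1 but summed to 18.5 to 43.3 CPM in Karpas422, mostly from CD3G (CD3D and CD3E reached at most 1.59 and 0.473 CPM), the 3 myeloid markers reached at most 5.45 CPM and the 2 epithelial markers at most 7.27 CPM, in HBL1. In Karpas422 the T cell sum was lower with shSIRT3-1 (18.5 to 31.7 CPM) than with shCtr (37.5 to 43.3 CPM) and the myeloid sum higher (3.24 to 5.45 against 1.56 to 2.84 CPM). With shSIRT3-2 the myeloid sum was lower than with shCtr in Karpas422 (1.05 to 1.44 CPM) and HBL1 (0.253 to 0.382 against 0.679 to 1.15 CPM). The epithelial sum in HBL1 was lower with shSIRT3-1 (3.61 to 4.404 CPM) and shSIRT3-2 (3.501 to 4.265 CPM) than with shCtr (4.72 to 7.27 CPM). In OCI-LY1 the T cell, myeloid and epithelial sums stayed under 1 CPM. The part of these markers in the results was not tested. HBL1 shSIRT3-1 replicate 3 stood apart from its group, with 1952 of 13076 genes more than 2-fold from the mean of its group against at most 597 in any other library. OCI-LY1 shCtr replicate 2 held the highest value of its group for EIF1, EIF1B, EIF2S2 and EIF4EBP1. Over all genes it did not stand apart, with 405 genes more than 2-fold from its group against 403 for replicate 1. It was picked by its values for these factors. These are the 2 libraries set aside together in some fits below.

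In control cells the levels spread over orders of magnitude. Per kilobase of the canonical transcript, the highest in Karpas422 was EIF1, a small factor that keeps the ribosome scanning until a start codon is found, at 167 ± 27 CPM per kb (SD, n = 3). EIF4A2, a paralog of the helicase EIF4A1, and EIF4G2, a relative of eIF4G that lacks the eIF4E-binding site, followed at 148 ± 9.35 and 136 ± 7.47 CPM per kb. EIF1 and EIF4A2 differed by less than the SD of EIF1. In HBL1 the order of the same genes changed, with EIF4G2 at 198 ± 1.87, EIF4A2 at 158 ± 8.58 and EIF1 at 144 ± 14.7 CPM per kb, of which the last 2 differed by less than the SD of EIF1. In OCI-LY1 EIF4A2 (148 ± 36.5), EIF5A (138 ± 31.5) and EIF3E (134 ± 36.4) led within their SDs, and EIF1 was at 68.9 ± 40.8 CPM per kb. The cap-binding protein gene EIF4E was far below these, at 7.85 ± 0.885 CPM per kb in Karpas422, against 6.52 ± 0.63 for OCI-LY1 and 4.74 ± 0.228 for HBL1. EIF4EBP1, the gene of an inhibitor of eIF4E, was at 47.6 ± 5.96, 41.7 ± 25.4 and 63.7 ± 3.39 CPM per kb in the same lines.

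**Figure D1:**
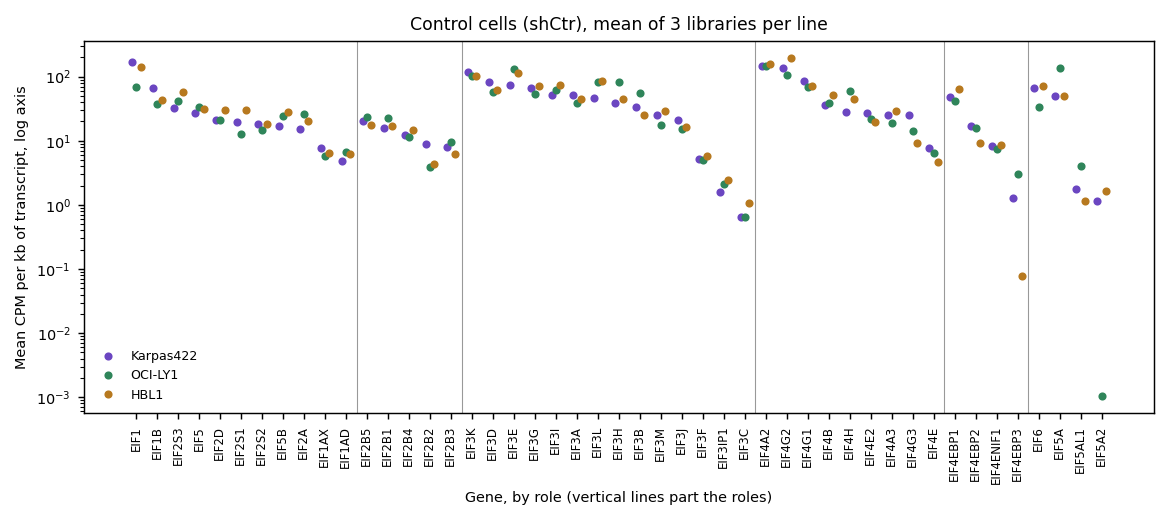
Levels of 47 initiation factors in control cells, as the mean of 3 libraries in CPM per kb of transcript on a log axis, for Karpas422, OCI-LY1 and HBL1. EIF4EBP3 in HBL1 (0.0783 CPM per kb) and EIF5A2 in OCI-LY1 (0.00104 CPM per kb, with 2 of 3 libraries at 0) lie far below the other points, and EIF1, EIF4A2 and EIF4G2 lie near the top.

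The lines differed from each other in these factors before any knockdown. Between control cells of OCI-LY1 and Karpas422, 16 of 47 factors (34.0%) were called, that is, differed at an adjusted p under 0.05 and by more than 1.5-fold, against 50.8% of all genes tested. Between HBL1 and Karpas422 there were 14 of 47 (29.8%, against 54.6% of all genes) and between HBL1 and OCI-LY1 16 of 47 (34.0%, against 54.6%). EIF5A2, a paralog of EIF5A, had the largest difference between lines. It was at 5.61, 8.07 and 5.73 CPM in Karpas422 and at 9.3, 8.7 and 9.12 CPM in HBL1, but in OCI-LY1 it was at 0, 0.0173 and 0 CPM, or 2 reads in all. The ratio of Karpas422 to OCI-LY1 was 957, with an exact 95% counting interval of 265 to 7908 that covers counting error only. EIF4EBP3 was at 0.0609, 0.0472 and 0.0547 CPM in HBL1, below the 0.65 to 1.14 CPM of Karpas422 and the 0.911 to 2.79 CPM of OCI-LY1. EIF5AL1, which is near-identical to EIF5A so that their reads may be shared, was higher in OCI-LY1 (20.4, 14 and 13.5 CPM) than in Karpas422 (7.16, 7.06 and 6.77 CPM), by 1.15 on the log2 scale (standard error 0.20, adjusted p = 5.5e-04). EIF4G3, an eIF4G scaffold, was lower in both OCI-LY1 and HBL1 than in Karpas422, by −0.81 and −1.41 on the log2 scale (standard errors 0.10, adjusted p = 6.2e-05 and 6.0e-07).

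With each hairpin against SIRT3, 3 well-measured initiation factors fell and 1 rose. In the fit over the 3 lines, EIF4EBP1, EIF2S2 and EIF1 were lower and EIF4E2 was higher, each by more than 1.5-fold with shSIRT3-1 and again with shSIRT3-2. The low-level EIF4EBP3 was also called lower with both, but it passed the filter on low values only through control libraries, which favours this direction. These are 5 of 47 factors (10.6%) with shSIRT3-1, where 13.0% of all 13076 genes tested were called (9.09% lower and 3.92% higher), and 5 of 47 with shSIRT3-2, where 13.5% were (10.2% lower and 3.29% higher). The 5 were called with both hairpins in the same direction (10.6%, against 5.09% of all genes), and EIF4EBP3 is no support among them. The comparisons share the control libraries. As a class, the factors were therefore not called more often than genes in general with either hairpin taken singly, while the share called with both was higher. Their median log2 difference was 0.04 with shSIRT3-1 and −0.01 with shSIRT3-2, beside −0.05 and −0.03 over all genes.

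Smaller differences were common. At an adjusted p under 0.05 and any fold, 20 of 47 factors passed with shSIRT3-1 (37.9% of all genes did, 22.3% lower and 15.6% higher), namely 11 lower and 9 higher. With shSIRT3-2 it was 20 of 47 as well (38.1% of all genes, 21.7% lower and 16.3% higher), with 13 down and 7 up. The split for shSIRT3-1 depended on the scaling. It was 5 lower and 15 higher with quantile normalization, and 6 against 11 both with median-ratio scaling and with edgeR on recovered reads. For shSIRT3-2 the same alternatives gave 15 and 8, 13 and 7, and 13 and 7. The 9 factors that rose with shSIRT3-1 passed under these 3 alternatives as well, whereas 6 of the 11 lower ones missed the threshold under at least 1 of them. In the same direction with both hairpins, 14 of 47 factors passed, where 18.2% of all genes did. Of these 14, 9 passed for both hairpins under all 3 alternatives. EIF1, EIF2S2 and EIF4EBP1 fell, and EIF2B5, EIF3B, EIF4E2, EIF4ENIF1 and EIF5B rose. The last of the 9, EIF4EBP3, entered the test only through control libraries and is no support.

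The fits of each line alone gave 8 called factors of 46 with each hairpin in Karpas422 (17.4%, against 16.0% of all genes with shSIRT3-1 and 15.0% with shSIRT3-2). In HBL1 there were 6 and 10 of 46 (13.0% and 21.7%, against 27.7% and 23.5%). The 6 became 10 with median-ratio scaling and 10 with edgeR. In OCI-LY1 there were 0 and 2 of 45 (0% and 4.44%, against 4.50% and 6.41%). For the 0, limma gave 15 of 45 factors at an unadjusted p under 0.05, and edgeR on recovered reads also called 0. Single libraries decided some of these counts. Without OCI-LY1 shCtr replicate 1 the 0 became 2, and without OCI-LY1 shSIRT3-2 replicate 2 or 3 the 2 became 0 or 1. Without Karpas422 shCtr replicate 3 the count for shSIRT3-2 was 5, and without HBL1 shSIRT3-2 replicate 1 or 2 it was 6 or 5.

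**Figure D2:**
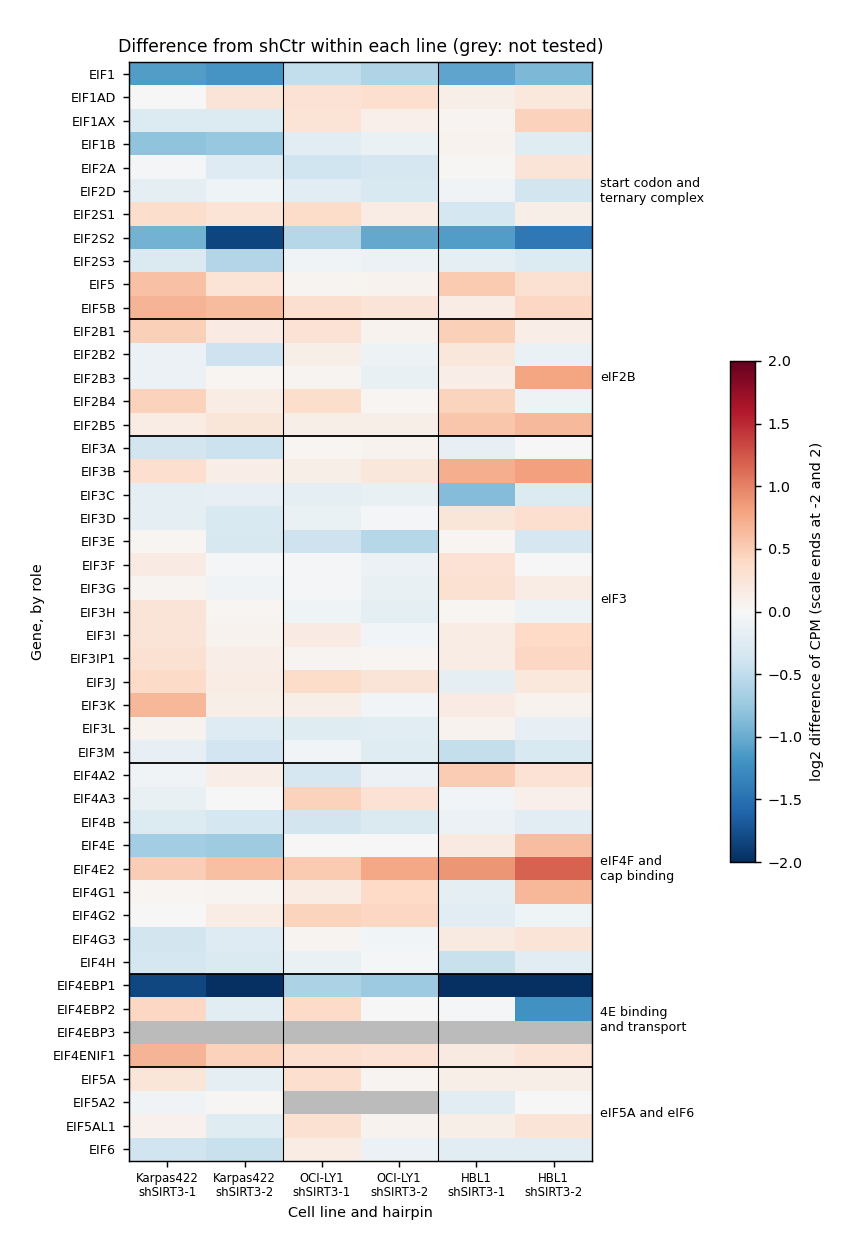
Difference from shCtr for each initiation factor (rows, by role), as a log2 difference of CPM from fits of each line alone (columns, line and hairpin), with blue for lower, red for higher and grey for not tested. EIF4EBP1, EIF2S2 and EIF1 are blue in all 6 columns, EIF4E2 is red in all 6, and EIF4E is blue in Karpas422 and red in HBL1.

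EIF4EBP1 encodes 4E-BP1, which binds eIF4E and blocks the assembly of eIF4F, and its gene is a known target of ATF4. In Karpas422 it was at 44.2, 39.6 and 34.3 CPM with shCtr, at 15.3, 17.3 and 4.95 CPM with shSIRT3-1 and at 13.8, 13.1 and 4.35 CPM with shSIRT3-2. In HBL1 the values were 49.6, 53.5 and 55 CPM with shCtr, 9.46, 12 and 3.43 CPM with shSIRT3-1, and 13.2, 14.4 and 12.2 CPM with shSIRT3-2. In both lines the control libraries lay above all knockdown libraries. In OCI-LY1 the control libraries were at 24.8, 58.6 and 20.1 CPM, and the groups overlapped, with 23.1, 14.9 and 22.6 CPM for shSIRT3-1 and 20, 15.2 and 20.8 CPM for shSIRT3-2. The highest OCI-LY1 control, replicate 2, was more than 2-fold above the other 2. Over the lines EIF4EBP1 fell by 1.76 on the log2 scale with shSIRT3-1 (standard error 0.32, adjusted p = 1.1e-04) and by 1.60 with shSIRT3-2 (standard error 0.32, adjusted p = 3.3e-04), which left 29.5% and 33.1% of the control level. Without the 2 libraries set aside, left out together after the data were seen, the differences were −1.49 and −1.55 (adjusted p = 3.5e-04 and 1.5e-04). Fitted alone, Karpas422 gave −1.83 and −2.07, OCI-LY1 −0.64 and −0.73 (adjusted p = 0.27 and 0.20) and HBL1 −2.83 and −1.99, and the test of a difference between lines gave an adjusted p of 0.069.

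The other members of this family gave other patterns. EIF4EBP2 encodes a closely related eIF4E-binding protein. In HBL1 it was at 66.5, 67.3 and 70.2 CPM with shCtr and at 63.8, 65.3 and 69.4 CPM with shSIRT3-1, but at 28.7, 30 and 29.3 CPM with shSIRT3-2. The last group lay below every other HBL1 library. In Karpas422 it was at 130.1, 134 and 120 CPM with shCtr, 179, 166 and 167 CPM with shSIRT3-1, above every control, and 113, 123 and 93.6 CPM with shSIRT3-2. Over the lines the difference was 0.25 with shSIRT3-1 (standard error 0.12, adjusted p = 0.10) and −0.48 with shSIRT3-2 (standard error 0.12, adjusted p = 0.0029), and without HBL1 the second was −0.12 (adjusted p = 0.35). The response differed between the lines (adjusted p = 1.1e-04).

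EIF4EBP3 was close to the lower limit of the measurement, and it entered the test only through control libraries. It reached 1 CPM in 3 of 27 libraries, all of them shCtr, so a difference in this direction was favoured by the filter and its call is no support. With shCtr it was at 0.91, 1.14 and 0.65 CPM in Karpas422 and 0.911, 2.79 and 2.56 CPM in OCI-LY1. With the SIRT3 hairpins it was at 0.169 to 0.334 CPM in Karpas422 and 0.726 to 0.954 CPM in OCI-LY1. The fitted differences were −0.87 and −0.92. Of its exon bases on hg19, 73.2% are shared with the read-through transcript ANKHD1-EIF4EBP3, which was at 0.473 to 1.38 CPM, so reads may be divided between them.

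EIF4ENIF1 encodes 4E-T, which carries eIF4E into the nucleus and to sites of mRNA decay, and it moved the other way. It rose by 0.40 with shSIRT3-1 (standard error 0.08, adjusted p = 4.9e-04) and by 0.34 with shSIRT3-2 (standard error 0.08, adjusted p = 0.0021). In OCI-LY1 the control libraries were at 27.6, 25.7 and 27.5 CPM, below the 35.2, 32.7 and 34.1 CPM of shSIRT3-1 and the 34, 30.1 and 34.4 CPM of shSIRT3-2. With shSIRT3-2 its knockdown libraries lay above the controls in each line, as those of EIF4E2 did (2 of 47 factors, 4.26%, against 3.80% of all genes).

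**Figure D3:**
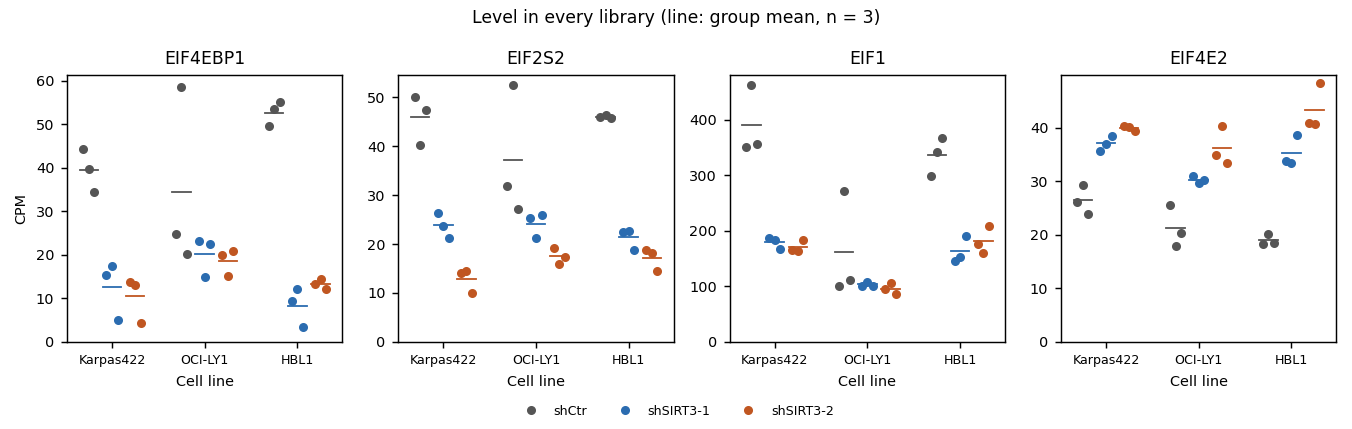
CPM in every library for EIF4EBP1, EIF2S2, EIF1 and EIF4E2 (linear axes from 0), by line and hairpin, with points for libraries and a bar for the mean of 3. Knockdown points of EIF2S2 lie below, and those of EIF4E2 above, the control points of their line in all 3 lines, while a single high control library in OCI-LY1 stands out for EIF4EBP1, EIF2S2 and EIF1.

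Of the 3 subunits of eIF2, only EIF2S2 was called in the fit over the lines. EIF2S2 encodes the beta subunit (hg19 chromosome 20, 32676115 to 32700049, minus strand). It was at 50.1, 40.3 and 47.4 CPM in Karpas422 controls, at 26.4, 23.7 and 21.3 CPM with shSIRT3-1 and at 14.2, 14.4 and 10 CPM with shSIRT3-2. In OCI-LY1 the values were 31.9, 52.5 and 27.1 CPM, then 25.3, 21.1 and 25.9 CPM, then 19.3, 15.8 and 17.4 CPM. In HBL1 they were 45.9, 46.4 and 45.9 CPM, then 22.6, 22.7 and 18.8 CPM, then 18.7, 18.1 and 14.4 CPM. No knockdown library overlapped the controls of its line. EIF2S2 was the only 1 of the 47 factors to lie below the controls in every line with both hairpins (2.13%, against 1.20% of all genes tested). Taken singly, shSIRT3-1 gave this 1 factor (5.06% of all genes) and shSIRT3-2 gave 2 (4.26%, against 5.62%), the other being EIF3E.

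EIF2S2 fell by 0.88 with shSIRT3-1 (standard error 0.12, adjusted p = 6.7e-06) and by 1.43 with shSIRT3-2 (standard error 0.12, adjusted p = 1.3e-08), to 54.5% and 37% of the control level. The levels with shSIRT3-2 were also below those with shSIRT3-1, by −0.56 on the log2 scale (standard error 0.12, adjusted p = 0.0013), and shSIRT3-2 is the hairpin that left more SIRT3 mRNA. Without Karpas422 this difference between the hairpins was −0.39 (adjusted p = 0.051). Without the 2 libraries set aside, the differences from shCtr were −0.78 and −1.39. In OCI-LY1 alone the difference passed the threshold with shSIRT3-2 (−1.03, standard error 0.21, adjusted p = 0.023) and not with shSIRT3-1 (−0.57, standard error 0.21, adjusted p = 0.12).

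EIF2S1, which encodes the alpha subunit that the stress kinases phosphorylate, had differences of 0.12 and 0.18 over the lines (standard errors 0.11, adjusted p = 0.40 and 0.19), and without HBL1 shSIRT3-1 replicate 3 the first was 0.22 (adjusted p = 0.026). Its response differed between lines (adjusted p = 0.027). In Karpas422 it rose from 82, 77.5 and 87.9 CPM to 103.5, 99.3 and 111 CPM with shSIRT3-1 and 99.6, 103 and 95.3 CPM with shSIRT3-2, a difference of 0.34 and 0.27 (standard errors 0.08, adjusted p = 0.011 and 0.034). In HBL1 the shSIRT3-1 libraries were at 115, 117 and 71.3 CPM, the last being the library that stood apart, against 139.5, 136 and 104 CPM in controls. EIF2S3, which encodes the gamma subunit that binds GTP and tRNA, fell with shSIRT3-2 (−0.33, standard error 0.07, adjusted p = 4.8e-04), but not without Karpas422 (−0.20, adjusted p = 0.074). With shSIRT3-1 its difference was −0.19 (adjusted p = 0.028), and it missed the threshold under quantile normalization, median-ratio scaling and edgeR (adjusted p = 0.12, 0.084 and 0.066).

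With shSIRT3-1 the 5 subunits of eIF2B had differences from 0.03 to 0.42, of which 3 passed the test, and with shSIRT3-2 they ran from −0.22 to 0.33. The hairpins differed from each other for 3 of them. EIF2B1 (the regulatory alpha subunit) was at 39.3, 35.5 and 38.9 CPM in Karpas422 controls, 54, 51.2 and 53.1 CPM with shSIRT3-1 and 44.3, 43.1 and 39.9 CPM with shSIRT3-2. In OCI-LY1 it was at 63.7, 49.9 and 50.8 CPM, then 67.2, 64.7 and 67.8 CPM, then 58.3, 57 and 55.6 CPM, and in HBL1 at 44.7, 42.6 and 36.9 CPM, then 58.2, 61 and 53.9 CPM, then 44.5, 48.8 and 42.7 CPM. The shSIRT3-1 libraries lay above the controls in each line, and those of shSIRT3-2 overlapped the controls in OCI-LY1 and HBL1. It rose by 0.42 with shSIRT3-1 (standard error 0.05, adjusted p = 2.8e-06), and the difference was 0.12 with shSIRT3-2 (standard error 0.05, adjusted p = 0.086; 0.16 and 0.011 without OCI-LY1 shCtr replicate 1). EIF2B4 (delta) had the same pattern, with 0.42 (standard error 0.06, adjusted p = 1.9e-05) and 0.03 (standard error 0.06, adjusted p = 0.73). EIF2B1 and EIF2B4 were, with EIF4E2, the 3 of 47 factors (6.38%, against 3.59% of all genes) above the controls in each line with shSIRT3-1.

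The catalytic epsilon subunit gene, EIF2B5, rose with both hairpins, by 0.27 (standard error 0.07, adjusted p = 0.0037) and 0.33 (standard error 0.07, adjusted p = 7.2e-04). In HBL1 its controls were at 49.3, 44.7 and 43.1 CPM, below 66.3, 68.3 and 67.1 CPM with shSIRT3-1 and 73.4, 77.9 and 63.5 CPM with shSIRT3-2. In OCI-LY1 the groups overlapped, and the difference with shSIRT3-1 missed the threshold without HBL1 (0.13, adjusted p = 0.14). EIF2B2 (beta) had a difference of 0.07 with shSIRT3-1 (standard error 0.07, adjusted p = 0.45) and fell with shSIRT3-2 (−0.22, standard error 0.07, adjusted p = 0.019; −0.12 and 0.31 without Karpas422). EIF2B3 (gamma) was at 8.64 to 22.4 CPM over the control libraries, and its differences were 0.03 and 0.23 (standard errors 0.14, adjusted p = 0.90 and 0.20). Between the hairpins themselves EIF2B1, EIF2B2 and EIF2B4 were lower with shSIRT3-2 than with shSIRT3-1, by −0.30, −0.29 and −0.39 (adjusted p = 2.1e-04, 0.0033 and 6.4e-05). Of the exon bases of EIF2B1, 14.8% overlap DDX55 on the other strand, and the sources used here do not say whether the counting used strand.

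**Figure D4:**
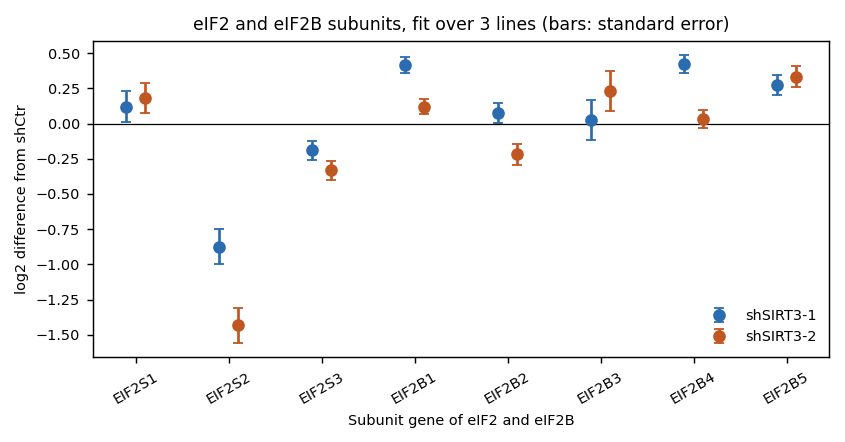
Log2 difference from shCtr for the 3 subunit genes of eIF2 and the 5 of eIF2B, from the fit over 3 lines, with points for each hairpin and bars for the standard error. EIF2S2 lies far below 0 with both hairpins (−0.88 and −1.43), and EIF2B1 and EIF2B4 lie near 0.42 with shSIRT3-1 only.

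EIF1 guards the choice of start codon by keeping the ribosome scanning. Its gene spans hg19 chromosome 17, 39845137 to 39848920, on the plus strand. In Karpas422 it was at 350.2, 462 and 356 CPM with shCtr, 186, 184 and 167 CPM with shSIRT3-1 and 164, 164 and 183 CPM with shSIRT3-2. In HBL1 the values were 299, 342 and 367 CPM, then 145, 153 and 190 CPM, then 176, 159 and 209 CPM. In both lines the controls lay above all knockdown libraries. In OCI-LY1 the controls were at 101, 271 and 112 CPM, and apart from the single value of 271 CPM in replicate 2 they lay within or next to the range of the knockdown libraries (85.6 to 108 CPM). Over the lines EIF1 fell by 0.88 and 0.89 (standard errors 0.14, adjusted p = 2.2e-05 and 2.1e-05), and by 0.80 with each hairpin without the 2 libraries set aside (adjusted p = 5.0e-05 and 3.2e-05). In OCI-LY1 alone the differences were −0.49 and −0.61 (adjusted p = 0.32 and 0.22). OCI-LY1 controls also held less EIF1 than Karpas422 controls, by −1.41 on the log2 scale (standard error 0.32, adjusted p = 0.0027).

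Its paralog EIF1B fell in Karpas422, from 64.3, 82 and 49.5 CPM to 36.5, 38 and 35.6 CPM with shSIRT3-1 and 37.9, 42.6 and 33.1 CPM with shSIRT3-2. In OCI-LY1 the controls were at 29.8, 50.4 and 30.7 CPM, the highest being replicate 2, and the knockdown libraries at 29.4 to 35.7 CPM. In HBL1 the groups overlapped with shSIRT3-1, which had 40.5, 41.2 and 53.4 CPM against 42.5, 44.4 and 40.4 CPM in controls. The differences were −0.80 and −0.76 in Karpas422 (standard errors 0.16, adjusted p = 0.0058 and 0.0075) and 0.08 and −0.24 in HBL1 (adjusted p = 0.63 and 0.15), and the response differed between the lines (adjusted p = 0.034). Over the lines the values were −0.31 and −0.38 (adjusted p = 0.044 and 0.016), and without Karpas422 −0.07 and −0.19 (adjusted p = 0.71 and 0.26). The difference with shSIRT3-1 also missed the threshold without the filter on low values, with quantile normalization, median-ratio scaling and edgeR (adjusted p = 0.068, 0.073, 0.072 and 0.055), and when any 1 of 10 single libraries was left out.

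Once the start codon has been found, EIF5 and EIF5B act. EIF5B, the GTPase that joins the large ribosomal subunit, rose by 0.38 with shSIRT3-1 (standard error 0.09, adjusted p = 0.0015) and 0.44 with shSIRT3-2 (standard error 0.09, adjusted p = 4.6e-04). In Karpas422 its controls were at 105, 99.1 and 88.9 CPM, below 170, 152 and 149 CPM and below 162, 151 and 141 CPM. The first missed the threshold without Karpas422 (0.23, adjusted p = 0.12). EIF5, which makes eIF2 hydrolyse its GTP, rose with shSIRT3-1 (0.39, standard error 0.09, adjusted p = 0.0014), with a difference of 0.21 for shSIRT3-2 (adjusted p = 0.062). Of the 11 described factors of the start codon and the ternary complex, 5 were lower and 2 higher at any fold with each hairpin, with a median log2 difference of −0.14 and −0.12. That is 7 of 11 (63.6%) with each, against 37.9% and 38.1% of all genes. The count with shSIRT3-1 depended on the scaling. EIF1B, EIF2D and EIF2S3, which were lower, passed under none of quantile normalization, median-ratio scaling and edgeR. EIF1AD passed as higher under the first and second of these (adjusted p = 0.0099 and 0.042). EIF2A, a separate protein that can deliver initiator tRNA and is not the alpha subunit of eIF2, did not pass the test (−0.14 and −0.12, adjusted p = 0.29 and 0.36).

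Among the cap-binding factors, EIF4E2 rose in every line. It encodes 4EHP, which binds the cap without binding eIF4G and represses the mRNAs it is brought to, and its gene spans hg19 chromosome 2, 233415369 to 233448354, on the plus strand. In Karpas422 it was at 26.2, 29.2 and 23.8 CPM with shCtr, 35.6, 37 and 38.5 CPM with shSIRT3-1 and 40.3, 40.2 and 39.3 CPM with shSIRT3-2. In OCI-LY1 the values were 25.6, 17.9 and 20.3 CPM, then 31, 29.6 and 30.3 CPM, then 34.9, 40.3 and 33.4 CPM. In HBL1 they were 18.3, 20.1 and 18.5 CPM, then 33.7, 33.3 and 38.6 CPM, then 40.9, 40.7 and 48.4 CPM. Every knockdown library lay above all controls of its line, which no other of the 47 factors showed with both hairpins (2.13%, against 1.02% of all genes tested).

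EIF4E2 rose by 0.63 with shSIRT3-1 (standard error 0.08, adjusted p = 1.5e-06) and 0.85 with shSIRT3-2 (standard error 0.08, adjusted p = 4.3e-08), to 155% and 181% of the control level. Without the 2 libraries set aside the values were 0.58 and 0.83, so that the first passed the test but fell just under the 1.5-fold limit. Without HBL1, EIF4E2 was not called with shSIRT3-1 either. The response differed between lines (adjusted p = 0.037), and the differences in the lines alone were 0.49 and 0.60 for Karpas422, then 0.52 and 0.77 for OCI-LY1, then 0.88 and 1.18 for HBL1. EIF4E2 was the only member called in OCI-LY1 besides EIF2S2, with shSIRT3-2 (adjusted p = 0.015).

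EIF4E itself moved in opposite directions in different lines. In Karpas422 it was at 18.1, 21.5 and 17.6 CPM with shCtr, 11.4, 10.9 and 12.7 CPM with shSIRT3-1 and 10.3, 11.8 and 12.5 CPM with shSIRT3-2, so that all controls lay above all knockdown libraries. In OCI-LY1 the groups overlapped at 14.3 to 17.3, 14.5 to 16.2 and 15 to 16.2 CPM. In HBL1 the controls were at 11.8, 11.8 and 10.9 CPM, below the 18.4, 18.5 and 16 CPM of shSIRT3-2, while shSIRT3-1 had 14.1, 13.9 and 11.3 CPM. The differences were −0.70 and −0.72 for Karpas422 (standard errors 0.12, adjusted p = 0.0023 and 0.0022), −0.02 and −0.0065 for OCI-LY1 (standard errors 0.10) and 0.18 and 0.61 for HBL1 (standard errors 0.12, adjusted p = 0.25 and 0.0054). The test of a difference between lines gave an adjusted p of 4.8e-05, and over the lines the differences were −0.18 and −0.04 (standard errors 0.13, adjusted p = 0.29 and 0.84). Without HBL1 they were −0.36 and −0.36 (adjusted p = 0.035 and 0.032), and without Karpas422 0.08 and 0.30 (adjusted p = 0.59 and 0.045).

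The scaffold and helicase genes of eIF4F differed by less than 1.5-fold over the lines. EIF4G1, the main scaffold, was at 647, 646 and 547 CPM in HBL1 with shSIRT3-2 against 419, 376 and 362 CPM in controls, and at 401, 420 and 224.5 CPM with shSIRT3-1, the lowest value being the library that stood apart. Over the lines its difference was −0.01 with shSIRT3-1 (standard error 0.12, adjusted p = 0.97), or 0.09 without the 2 libraries set aside. It rose by 0.38 with shSIRT3-2 (standard error 0.12, adjusted p = 0.015). This rise missed the threshold without OCI-LY1 or HBL1 (0.36 and 0.23, adjusted p = 0.083 and 0.084). EIF4G3 fell in Karpas422 with shSIRT3-1 (146, 178 and 151 CPM to 119, 127 and 123 CPM; −0.36, standard error 0.09, adjusted p = 0.015), and its response differed between lines (adjusted p = 0.0028). EIF4A2 rose in HBL1 with shSIRT3-1 (306, 279 and 309 CPM to 402, 407 and 469 CPM; 0.51, standard error 0.13, adjusted p = 0.012), and its differences over the lines were 0.04 and 0.10 (adjusted p = 0.80 and 0.46). EIF4A1 was listed at 0 in 27 of 27 libraries and did not enter the set. Of its exon bases, 28.2% are shared with the read-through transcript SENP3-EIF4A1, at 0.0498 to 0.796 CPM, and its level cannot be read from these tables. EIF4H and EIF4B, which stimulate the helicase, were among the lower members with shSIRT3-1 (−0.31 and −0.25, adjusted p = 9.7e-04 and 0.018), although EIF4B did not pass under the other scalings.

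**Figure D5:**
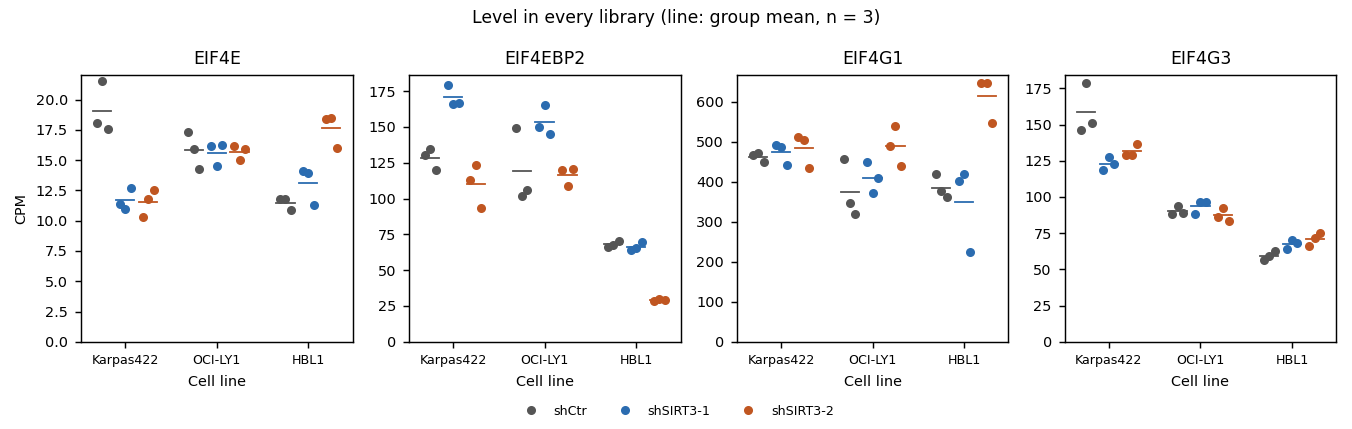
CPM in every library for EIF4E, EIF4EBP2, EIF4G1 and EIF4G3 (linear axes from 0), by line and hairpin, with points for libraries and a bar for the mean of 3. EIF4E is lower than control in Karpas422 and higher in HBL1 with shSIRT3-2, and EIF4EBP2 drops to 28.7 to 30 CPM in HBL1 with shSIRT3-2 only.

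The promoter sequences of these genes were searched for short motifs, because the cap-binding genes EIF4E and EIF4G1 are textbook targets of MYC, which binds the E-box CACGTG. RefSeq windows (GRCh38.p14) of 250 bases before to 50 after the gene start were at hand for 39 of the 47 factors. CACGTG, which reads the same on both strands, was in 11 of the 39 windows (28.2%), against 8.79% of the windows of 27195 genes. Those genes were not limited to genes with a level in these libraries, so the sets are unlike. The sites of EIF4E and EIF4G1, which hold 2 each, and of EIF1B are shown, as 30 bases in the direction of the gene with the motif in capitals.
EIF4E, first site, chr4:98929341-98929370, minus strand: ctacccatcggcCACGTGaccagtcctttt
EIF4E, second site, chr4:98929188-98929217, minus strand: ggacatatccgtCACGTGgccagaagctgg
EIF4G1, first site, chr3:184314450-184314479, plus strand: ggctgtggctgtCACGTGacggggcggggg
EIF4G1, second site, chr3:184314527-184314556, plus strand: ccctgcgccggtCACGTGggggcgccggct
EIF1B, chr3:40309641-40309670, plus strand: gcgcgggacggtCACGTGggaggggccgcg

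Factors with and without the motif were found in both directions. With shSIRT3-1, 4 of the 11 factors with CACGTG were lower and 1 higher at any fold, and of the 28 without it 5 were lower and 8 higher. For shSIRT3-2, 3 of the 11 were lower and 1 higher, and 7 of the 28 were lower and 6 higher. EIF4EBP3 is among the 11 and counts as lower with each hairpin, but it entered the test only through control libraries and is no support. Of those lower with shSIRT3-1, EIF1B and EIF4B with the motif passed under none of the other scalings. The same holds for EIF2D, EIF2S3 and EIF3M without it. Over all genes tested, with or without the motif, 22.3% were lower and 15.6% higher with shSIRT3-1, and 21.7% and 16.3% with shSIRT3-2. TGATGNAA, the letters of the composite site that ATF4 shares with C/EBP proteins, searched on both strands, was in 0 of the 39 windows and in 4.46% of the windows of all genes, and the full cAMP response element TGACGTCA was in 0 of 39 and 2.25%. The windows of EIF4EBP1 and EIF2S2 were not among those at hand, and a match or its absence in a window is a description of letters only.

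The eIF3 complex sits on the small ribosomal subunit. The 14 described genes named EIF3 hold its subunits and the pseudogene EIF3IP1. Their differences ran from −0.42 to 0.39 with shSIRT3-1 and from −0.41 to 0.39 with shSIRT3-2, under the 1.5-fold limit. The medians were 0.09 and −0.04. At an adjusted p under 0.05 and any fold, shSIRT3-1 gave 4 (28.6%, against 37.9% of all genes), 2 of them down and 2 up, and shSIRT3-2 gave 3 (21.4%, against 38.1%), 2 down and 1 up. EIF3B, a core scaffold subunit, rose with both hairpins (0.39 and 0.39, standard errors 0.12, adjusted p = 0.013 each). Its difference was largest in HBL1, where the controls were at 86.3, 76.6 and 67.2 CPM, below 149, 150 and 90.3 CPM with shSIRT3-1 and 142, 146 and 119 CPM with shSIRT3-2. Without HBL1 the values were 0.22 and 0.18 (adjusted p = 0.17 and 0.28). EIF3E, a peripheral subunit, fell with shSIRT3-2 (−0.41, standard error 0.10, adjusted p = 0.0033), and its libraries then lay below the controls in each line, but the difference was −0.11 with shSIRT3-1 (adjusted p = 0.41). EIF3K rose with shSIRT3-1 (0.31, standard error 0.08, adjusted p = 0.0046), its difference with shSIRT3-2 was 0.04 (adjusted p = 0.74), and the hairpins differed from each other (−0.27, adjusted p = 0.015). EIF3C was at 1.19 to 3.4 CPM. In controls of Karpas422, OCI-LY1 and HBL1 it was at 0.643, 0.637 and 1.07 CPM per kb. EIF3F, the next lowest protein-coding gene of those described, was at 5.25, 5.02 and 5.72 CPM per kb. EIF3CL, a near-identical copy of EIF3C, was at 0.0103 to 0.0928 CPM. Reads may have been lost to both, and the EIF3C difference with shSIRT3-1 (−0.42, adjusted p = 0.0086) is uncertain. EIF3IP1, which is counted among the 14, is a processed pseudogene of EIF3I and may share its reads.

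The genes of eIF5A, which helps the ribosome past difficult stretches, and of eIF6, which keeps the ribosomal subunits apart, showed a single change at any fold. EIF6 fell with shSIRT3-2 (−0.26, standard error 0.08, adjusted p = 0.010), with −0.16 for shSIRT3-1 (adjusted p = 0.11). EIF5A differed by 0.23 and −0.0040 (standard errors 0.12, adjusted p = 0.12 and 0.98). EIF5A2 differed by 0.03 and −0.01 (standard errors 0.14, adjusted p = 0.87 and 0.95).

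The hairpins were compared with each other directly. At an adjusted p under 0.05 and any fold, 9 of 47 factors differed between shSIRT3-2 and shSIRT3-1 (31.7% of all genes did, 15.1% lower and 16.6% higher), 7 lower and 2 higher with shSIRT3-2. EIF4EBP2 was the only 1 called (2.13%, against 11.3% of all genes), at −0.74 (standard error 0.12, adjusted p = 5.7e-05). The others were EIF2S2, EIF2B1, EIF2B2, EIF2B4, EIF3E and EIF3K, which were lower with shSIRT3-2, and EIF4G1 and EIF4E2, which were higher (0.38 and 0.22, adjusted p = 0.016 and 0.036). The difference of EIF4G1 was 0.14 without HBL1 (adjusted p = 0.32). The difference of EIF4E2 missed the threshold with quantile normalization (0.16, adjusted p = 0.15), with median-ratio scaling (0.20, adjusted p = 0.061) and with edgeR (0.21, adjusted p = 0.058), and without OCI-LY1 or HBL1 (0.20 and 0.18, adjusted p = 0.12 and 0.12).

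The response to the hairpins differed between the lines for 13 of 47 factors (27.7%), against 41.8% of all genes tested. The count was 21 with quantile normalization and 21 without the 2 libraries set aside. It was higher still with a term for the replicate number in the fit, as given at the end. The shares of all genes under these settings are not given, so these counts cannot be set against the 41.8%. Whether the factors differ between lines less often than genes in general is therefore not settled. EIF4E, EIF4EBP2 and EIF1AX, a factor that prepares the small subunit for scanning, had the lowest adjusted p. EIF1AX fell in Karpas422 (−0.28 with each hairpin, standard errors 0.09, adjusted p = 0.037 and 0.041) and rose in HBL1 with shSIRT3-2 (0.47, standard error 0.11, adjusted p = 0.013).

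Genes that work with the initiation factors but carry other names gave 2 called of 16 with shSIRT3-1 (12.5%, against 13.0% of all genes) and 4 of 16 with shSIRT3-2 (25%, against 13.5%). PDCD4, an inhibitor of the eIF4A helicase, fell with both hairpins (−0.75 and −0.88, standard errors 0.17, adjusted p = 0.0011 and 2.6e-04). DENR, which with MCTS1 recycles ribosomes and restarts them after upstream reading frames, fell by 0.97 with shSIRT3-2 (standard error 0.11, adjusted p = 3.6e-07) and by 0.29 with shSIRT3-1 (standard error 0.11, adjusted p = 0.032). MCTS1 had differences of −0.01 and −0.17 (standard errors 0.04, adjusted p = 0.84 and 0.0037), and EIF2D, which joins the functions of both in a single protein, −0.15 and −0.25 (standard errors 0.05, adjusted p = 0.030 and 8.9e-04, the first not under the other scalings). BZW1, a mimic of eIF5 that competes with it for eIF2, rose by 0.26 and 0.69 (standard errors 0.10, adjusted p = 0.040 and 1.0e-05). CYFIP1, an eIF4E-binding protein, rose by 0.81 and 0.87 (standard errors 0.31, adjusted p = 0.038 and 0.026) and was called with each hairpin. It ran from 0.0649 to 29.6 CPM over all libraries, with a median of 0.604 CPM. In the fits of Karpas422 and OCI-LY1 alone it was too low to be tested, and 15 of the 16 genes were tested there. Only the fit of HBL1 alone held CYFIP1, so its rise is not shown for the other lines. The differences of 9 elongation and termination factors ran from −0.30 to 0.33 with shSIRT3-1 and from −0.43 to 0.14 with shSIRT3-2. Of these, 2 and 1 passed the test at any fold, among them EEF2, the translocase of the ribosome, which fell with both (−0.30 and −0.43, standard errors 0.11, adjusted p = 0.035 and 0.0041).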

How the data were processed

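RNA was measured by sequencing in 27 libraries of 3 DLBCL lines. Total RNA was extracted and made into libraries with a TruSeq RNA kit, random priming and paired-end reads, and the authors aligned reads with STAR to hg19 and counted them over RefSeq genes with Rsubread. The deposited files name their unit FPKM, but within a library every value, for long and short genes alike, is a whole number of steps of 1 size (100% whole within 0.01 of a read), so they are CPM, without a term for gene length. Reads on genes made up 40.3 to 45.6% of the divisor used by the authors, and 1 read equalled 0.00831 to 0.0157 CPM, so that values near these rest on single reads.

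Differences were fitted with limma 3.58.1 in R 4.3.3 on log2(CPM + 0.1), which understates changes of low genes, over genes at 1 CPM or more in at least 3 of the libraries fitted. P-values were adjusted by Benjamini-Hochberg over all genes tested. The fit over 3 lines had terms for line and hairpin, the test between lines was an F test on their interaction, and each line and the control libraries were also fitted alone. A factor was said to have risen or fallen at an adjusted p under 0.05, and was called when the fold also passed 1.5. The edgeR 4.0.16 quasi-likelihood test ran on reads recovered from the CPM steps as an alternative. Scripts were tested on simulated data. Replicates were distinct, with 0 identical pairs of libraries.

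Factors named were those called with either hairpin, the 5 lowest and 5 highest by mean difference, the subunits of eIF2, eIF2B and eIF4F, EIF4EBP1 and EIF4EBP2, those whose response differed between lines and that were called in a line with both hairpins, and the 3 with the largest differences between control lines. Others are named to complete a count or were chosen after their values were seen. The members and lists were chosen with earlier results of these data known. Levels between genes were set side by side only per kilobase of the GENCODE v44lift37 canonical transcript. Promoter windows came from RefSeq, and the protein sequences were not used here. The factor on chromosome Y is not reported here.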

Additional observations from a re-analysis of the deposited data

Results flagged for a closer look

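For 13 of the 47 initiation factors the response to the hairpins differed between the 3 lines by the interaction test of limma, at the adjusted p-values that follow. The values were 4.8e-05 for EIF4E, 1.1e-04 for EIF4EBP2, 9.2e-04 for EIF1AX, 0.0028 for EIF4G3 and 0.0094 for EIF4A2. They were 0.012 for EIF3D, 0.014 for EIF2B5, 0.027 for EIF2S1, 0.028 for the low-level EIF4EBP3 and 0.031 for EIF4G2. For EIF1B, EIF4E2 and EIF3J they were 0.034, 0.037 and 0.039. The same test passed for 41.8% of all genes. What sets the lines apart here was not tested. Each subtype is represented by a single line, and the medium of OCI-LY1 was another than that of the other lines. The level of SIRT3 left by the hairpins was also unlike between lines, and its part was not tested. With shCtr, shSIRT3-1 and shSIRT3-2 its means were 9.78, 2.6 and 5.32 CPM in Karpas422. They were 11.5, 1.64 and 5.42 CPM in OCI-LY1 and 14.7, 2.17 and 3.26 CPM in HBL1.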

How the results depend on the processing

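EIF1, EIF2S2, EIF4EBP1 and EIF4E2 kept their direction and their adjusted p under 0.05 with both hairpins under every alternative run, including each library left out in turn. The 1.5-fold limit was not always kept. With shSIRT3-1, EIF4E2 was not called without HBL1 or without the 2 libraries set aside. Other counts moved, and where no value shows a cause, the cause was not tested. Leaving out 1 library gave 4 to 5 called factors with shSIRT3-1, with shSIRT3-2 and with both, 16 to 23 and 19 to 24 at any fold, 1 to 2 between the hairpins, and 9 to 19 with a response that differed between lines. In the lines it gave 6 to 9 and 5 to 9 in Karpas422, 0 to 2 and 0 to 3 in OCI-LY1, and 5 to 7 and 5 to 10 in HBL1, and between control lines 14 to 18, 11 to 16 and 14 to 16. With quantile normalization 2 factors differed between the hairpins and 21 between lines in response. HBL1 with shSIRT3-1 had 10 called with median-ratio scaling and 10 with edgeR, and without Karpas422 12 passed at any fold with shSIRT3-1. Between the hairpins 2 were called without OCI-LY1. Without the 2 libraries set aside, chosen after seeing the data, 3 were called with shSIRT3-1, 3 with both, 2 between the hairpins and 21 between lines. EIF4EBP3 was then not tested. The shares of all genes under these alternatives are not given, so these counts cannot be set against the shares of the main fits.

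Differences near 0 changed sign. With quantile normalization EIF4E with shSIRT3-2 was at 0.030 and EIF4G3 with shSIRT3-1 at 0.0049. EIF4G1 with shSIRT3-1 was at 0.032 with median-ratio scaling, 0.044 with edgeR, 0.086 without HBL1 and 0.086 without the 2 libraries, where EIF4A2 was at −0.015. Without Karpas422 EIF2B4 with shSIRT3-2 was at −0.029, EIF4E at 0.084 and 0.30, and EIF4G3 at 0.12 and 0.10. Without OCI-LY1 EIF2S1 with shSIRT3-1 was at −0.0016, and without HBL1 EIF2B2 with shSIRT3-1 was at −0.0016, EIF2B3 at −0.030 and −0.048 and EIF4A2 with shSIRT3-1 at −0.20. With 1 library left out, the ranges were −0.062 to 0.11 for EIF2B3, −0.017 to 0.12 for EIF4A2, −0.045 to 0.10 for EIF4G1 and −0.072 to 0.00999 for EIF4G3 with shSIRT3-1, and −0.095 to 0.041 for EIF4E and −0.054 to 0.028 for EIF4G3 with shSIRT3-2.

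Replicate numbers were not taken to pair the libraries, since the labels do not say what a number marks and 1 pair lay under the limit of 0.1, although the data hint at a pairing. Deviations of same-numbered libraries of a line correlated at a mean r of 0.32 over 27 pairs, with 26 of 27 over 0.1, against a mean of −0.14 over 54 other pairs, and 25 of 27 libraries correlated best with a library of their own number. A replicate block gave 27 factors with a response that differed between lines in place of 13, and left 5 called with each hairpin. The share of all genes under the block is not given, so the 27 cannot be set against the 41.8% of the main fit.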
